A study of Nematostella vectensis with 10 samples.

Results

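The comparison described here set the apical tissue of the late planula of the sea anemone Nematostella vectensis against the rest of the larval body, before settlement. It used the libraries labelled as late planula, 3 apical and 3 body, which were 6 of the 10 libraries of the series. The other 4, with 2 of each tissue, came from mid-planulae and served only to show where the late stage differed. All 25729 gene models, named by NVE identifiers, were considered, and 19950 had enough counts to be tested.

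The larvae came from a laboratory culture, and neither the labels nor the methods name a mutation or a treatment for any group. The late planulae were sampled 75 to 85 h post fertilisation and the mid-planulae 50 to 60 h post fertilisation. At each stage the tissue at the aboral end, which carries the apical organ, was cut from the larva with needles and is called apical here, while the remaining larval tissue is called body. Each RNA sample combined pieces from many larvae of several batches, so a replicate is a pool and not a single animal. Nothing states that the pools of one group came from separate cultures, and the p-values below therefore measure the spread between these samples, which may be partly technical. The body piece holds many tissues, among them the pharynx and the oral ectoderm, while the apical piece holds the apical organ and the tissue next to it.

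The planula is a ciliated larva that swims with its aboral end in front. The apical organ at that end is a pit of cells bearing a long tuft of cilia, and it is thought to sense cues for settlement and metamorphosis. In Nematostella its formation depends on fibroblast growth factor signalling, and the cells of the pit (the spot) are surrounded by a collar of other cells (the ring). Anthozoan larvae also carry scattered neurons that release small amidated peptides, and gland cells that secrete enzymes or mucus.

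The counts on gene models summed to 20444575, 21636095 and 18098107 in the apical libraries and to 16702779, 19553013 and 27730410 in the body libraries, and no difference in the total was detected between the tissues (two-sided exact permutation test, p = 0.9, where the smallest p that 3 against 3 libraries allow is 0.1). Between 22305 and 22489 gene models had at least 1 count in an apical library, against 22155 to 23539 in a body library (exact permutation p = 0.4). The 100 gene models with the largest counts held 37.8 to 46.7% of the counts in apical libraries and 36.3 to 42.6% in body libraries (exact permutation p = 0.7). Levels are given as CPM, counts per 1000000 after TMM normalisation, which rescales each library so that most genes keep the same level. A count of 3, taken as the smallest level a library can show, corresponded to 0.106 to 0.204 CPM, which covers counting error only. Across the 19950 gene models tested, log2 CPM correlated at 0.930 to 0.961 between apical libraries, at 0.908 to 0.966 between body libraries and at 0.798 to 0.881 between an apical and a body library. Genes are not independent replicates, so these values describe the libraries and carry no test.

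The 2 tissues differed in 2003 of the 19950 gene models tested (10.04%), with edgeR's quasi-likelihood test at a Benjamini-Hochberg adjusted p under 0.05. Of these, 793 (3.97% of those tested) were higher in apical tissue and 1210 (6.07%) were lower. The median log2 fold change of all tested gene models, apical over body, was 0.01, with 10053 models above 0 and 9897 below. In bulk tissue, fewer cells of a type and less RNA per cell cannot be told apart, so each difference below is one in the RNA of the dissected piece. Without any test, 5503 gene models (27.6%) had no overlap between the 3 apical and the 3 body libraries, 2506 with all apical libraries above (12.6%) and 2997 with all apical libraries below (15.02%). Of the called models, 792 of the 793 higher ones and 1207 of the 1210 lower ones had no overlap. The exceptions were NVE18382, which was called higher, and NVE4603, NVE15290 and NVE6415, which were called lower while body replicate 1 lay within the range of the apical libraries. With a log2 fold change of at least 1 in either direction also required, 712 were higher and 1162 lower in apical tissue, 9.39% of those tested, and 4327 models (21.7%) had an unadjusted p under 0.05. The counts of calls depended on single libraries. Without body replicate 3 they fell to 252 higher and 706 lower, and without apical replicate 1 to 294 higher and 726 lower, while 956 of the 958 calls made without body replicate 3 and 1006 of the 1020 made without apical replicate 1 were among the 2003. The count of higher models also fell to 468 without body replicate 2 and to 521 without apical replicate 3.

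**Figure D1:**
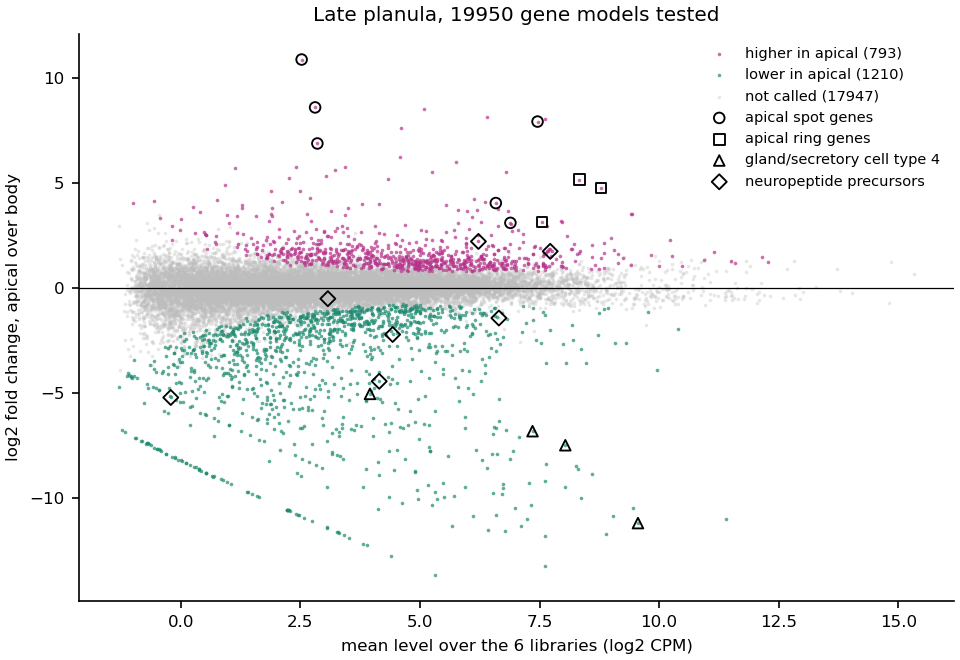
Log2 fold change of apical over body tissue (vertical axis) against the mean level in log2 CPM (horizontal axis) for the 19950 gene models tested in the late planula, one point per model, with the 793 higher in apical tissue and the 1210 lower in apical tissue coloured and spot, ring, gland type 4 and neuropeptide precursor models marked by open symbols. The called models above 0 lie mostly between 1 and 2 on the log2 scale, whereas those below 0 extend to the 286 models at -5 or less, where the fitted value of a model with no apical counts depends on the prior count of the fit.

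The 2 sets of called gene models differed in the size of the change. The models higher in apical tissue had a median log2 fold change of 1.47 (quartiles 1.17 and 1.91), and 532 of the 793 lay between 1 and 2. The models lower in apical tissue had a median of -2.62 (quartiles -4.77 and -1.64), or -2.57 when models with no apical counts were set to the bound that 3 counts per library give. A log2 change of at least 2 was reached by 180 of the 793 higher models (22.7%) and by 787 of the 1210 lower models (65.0%). A change of at least 5 was reached by 20 higher models (2.52%) and 286 lower models (23.6%), of which 239 stayed past 5 with models of no apical counts at their bound. The difference between the 2 sets is a description of the called models, and no test was made of it.

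Gene models at the floor in the other tissue were rare among the higher set. Of the 793 models higher in apical tissue, 5 (0.631%) had 3 counts or fewer in every body library, which were NVE27, NVE10492, NVE22704, NVE21803 and NVE9753, whereas 160 of the 1210 lower models (13.2%) had 3 counts or fewer in every apical library. No count at all in the other tissue was seen for 1 of the higher (NVE10492) and 73 of the lower models. By level alone, with at least 10 counts in every library of one tissue and at most 3 in every library of the other, 6 gene models were found in apical tissue and 168 in body tissue. Of these, the apical models reached at most 13.9 CPM on average and 2 of them (NVE27 and NVE10492) reached 10 CPM, while the body models reached up to 389 CPM and 42 of them reached 10 CPM. No test was made of these counts.

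Shares of calls also moved with the counts of a gene. The tested gene models were put into 5 bins of 3990 each by mean log2 CPM over the 6 libraries, so that a bin reflects gene length as well as RNA level. In the lowest bin 0.476% of the models were called higher in apical tissue and 4.74% lower, and in the highest bin 8.95% higher and 5.31% lower. The share called higher increased through every bin, at 0.476, 1.58, 3.81, 5.06 and 8.95%, while the share called lower stayed between 4.74 and 6.94%. The median log2 fold change of the higher models was 2.69 in the lowest bin and 1.31 in the highest, and that of the lower models was -4.10 and -2.64. The precision of a low count limits which small changes can be called, and its part in these shares was not tested.

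**Figure D2:**
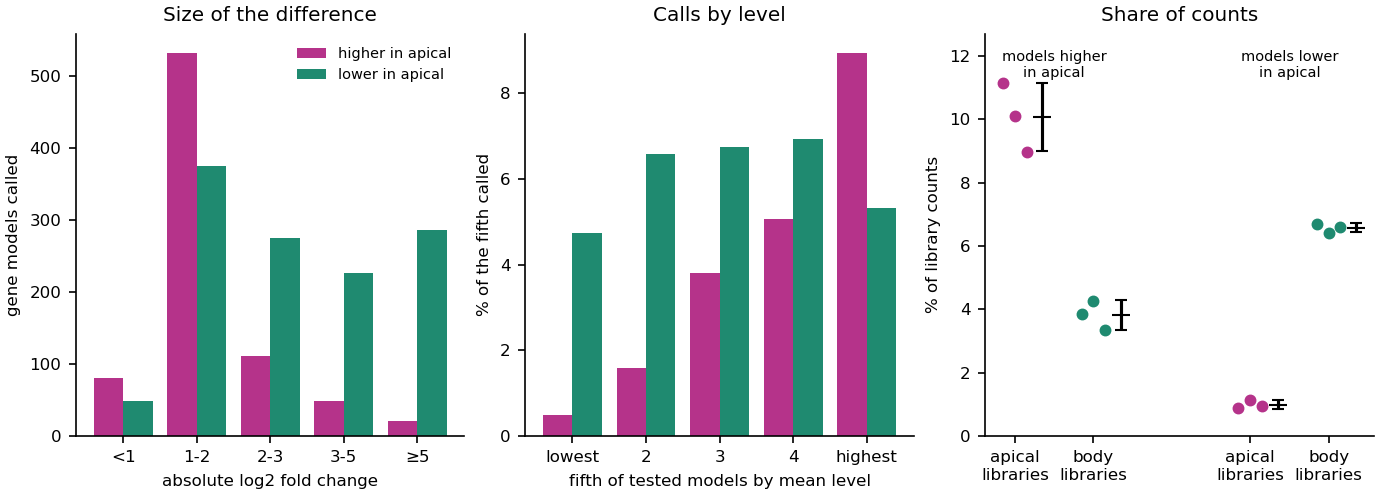
Number of called gene models by absolute log2 fold change (left), percentage of the tested models called in each of 5 bins of mean log2 CPM (middle), and percentage of library counts held by the called models in each apical and body library with mean and SD (right). The models higher in apical tissue pile up at a log2 change of 1 to 2 (532 of 793), while 286 of the 1210 lower models lie at 5 or more, the percentage called higher climbs to 8.95% in the bin with the largest counts, and the higher models hold 8.97 to 11.1% of apical against 3.34 to 4.27% of body counts.

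As a share of each library, the 793 models called higher held 11.1, 10.1 and 8.97% of the counts in apical libraries, against 3.86, 4.27 and 3.34% in body libraries, a ratio of the means of 2.63. The 1210 models called lower held 0.873, 1.14 and 0.929% of the counts in apical libraries, against 6.70, 6.42 and 6.61% in body libraries, where the body mean was 6.71 times the apical mean. Since the calls fix both directions, these shares are descriptions. With the calls of the DESeq2 test in place of those of edgeR, the models called higher held 20.9% of apical counts on average, against 10.1% here. The median coefficient of variation of the higher models among apical libraries was 23.1%, beside 28.7% for all tested models, and that of the lower models among body libraries was 23.4%, beside 27.6%. The test favours models of low spread, so this is not read as a trait of the called models, and the reason for the lower spread was not tested. Apical replicate 1 held the highest value for 471 of the 793 higher models and apical replicate 2 the lowest for 433. Among the 1210 lower models, body replicate 1 was the highest body library for 595 and body replicate 2 the lowest for 571.

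The labelled apical tissue was checked against genes with known position in the organ. The study placed 6 gene models in the spot and 3 in the ring by in situ hybridisation, after choosing them from these same libraries, so their direction here is not independent evidence. All 6 spot models were higher in apical tissue, with a median log2 fold change of 7.42 (6.60 with a model of no body counts at its bound), and all 3 ring models were higher, with a median of 4.76. Of all tested models 3.97% were called higher. Summed over the spot models, the level was 988, 689 and 674 CPM in apical libraries, against 36.6, 41.5 and 33.4 CPM in body libraries. Summed over the ring models it was 2976, 914 and 1557 CPM in apical libraries, against 103, 79.7 and 77.9 CPM in body libraries. The body therefore held 4.74% of the apical level for the spot and 4.78% for the ring.

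ISX-like (NVE14554) encodes a transcription factor of the paired homeodomain class. Its level was 497, 282 and 272 CPM in apical libraries, against 0.787, 2.51 and 0.915 CPM in body libraries. The groups lay far apart, with a log2 fold change of 7.94 (SE 0.55, edgeR adjusted p = 1.17e-05), and the body mean was 0.401% of the apical mean. Body replicate 2 set much of the body level, and without it the log2 fold change was 8.65. NVE10492, a spot model with no name in the study, had 258, 344 and 104 counts in apical libraries and none in any body library. At 13.0, 13.9 and 7.07 CPM in apical libraries it was at least 78.7-fold higher in apical tissue, with the body set to the floor of 3 counts per library (adjusted p = 7.81e-05). NVE27, another unnamed spot model, had 381, 236 and 188 counts in apical libraries and 0, 0 and 2 in body libraries. Its ratio of 454 has an exact 95% interval of 125 to 3756 for counting error alone (adjusted p = 2.86e-05). These 2 models also had the largest fold changes among called models whose average log2 CPM reached 1.

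The other 3 spot models all had counts in at least 1 body library. NVE2235 had 20.2, 12.96 and 9.52 CPM in apical libraries, against 0, 0 and 0.281 CPM in body libraries, where the single non-zero library held 8 counts (log2 fold change 6.90, SE 0.79, adjusted p = 0.000344). Without body replicate 3, no body count of NVE2235 was left, and the fitted value of 11.12 then depends on the prior count. NVE2832, printed as TLL1 by the study, had 227, 116 and 201 CPM in apical libraries, against 15.7, 9.12 and 8.09 CPM in body libraries (4.05, SE 0.37, adjusted p = 7.92e-05). NVE8009, printed as TSP1, had 212, 255 and 171 CPM in apical libraries, against 20.1, 29.9 and 24.0 CPM in body libraries (3.11, SE 0.27, adjusted p = 5.68e-05). The spot list thus covered a range of log2 fold changes of 3.11 to 10.90. No spot model overlapped between the tissues, beside 12.6% of all tested models with all apical libraries above. NVE18750, a further apical marker, had 20.2, 19.3 and 15.5 CPM in apical libraries, against 0.131, 0.346 and 0.563 CPM in body libraries (5.61, SE 0.44, adjusted p = 2.83e-05).

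The ring models kept a measurable level in the body. PoxA (NVE14902), a paired-box transcription factor, had 1476, 360 and 717 CPM in apical libraries, against 32.5, 33.1 and 28.3 CPM in body libraries. Its apical libraries spread widely (851 ± 570 CPM, SD, n = 3, against 31.3 ± 2.67 CPM in body), and the log2 fold change was 4.76 (SE 0.50, edgeR adjusted p = 0.000202), or 4.11 without apical replicate 1. Slc (NVE8226) had 1015, 364 and 503 CPM in apical libraries, against 20.5, 16.9 and 15.1 CPM in body libraries (5.16, SE 0.43, adjusted p = 4.25e-05). NVE4712, printed as KCTD1, had 485, 190 and 337 CPM in apical libraries, against 49.9, 29.7 and 34.5 CPM in body libraries (3.15, SE 0.38, adjusted p = 0.000478). For each ring model the apical libraries ranked replicate 1, then 3, then 2, with a highest-to-lowest ratio of 2.55 to 4.10, compared with 1.49 to 2.12 for the spot models, and this difference was not tested. The order is not particular to the ring. Among all 793 higher models, replicate 1 was the highest apical library for 471 and replicate 2 the lowest for 433. Of the 6 spot models, only NVE27 and NVE2832 had the same order.

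**Figure D3:**
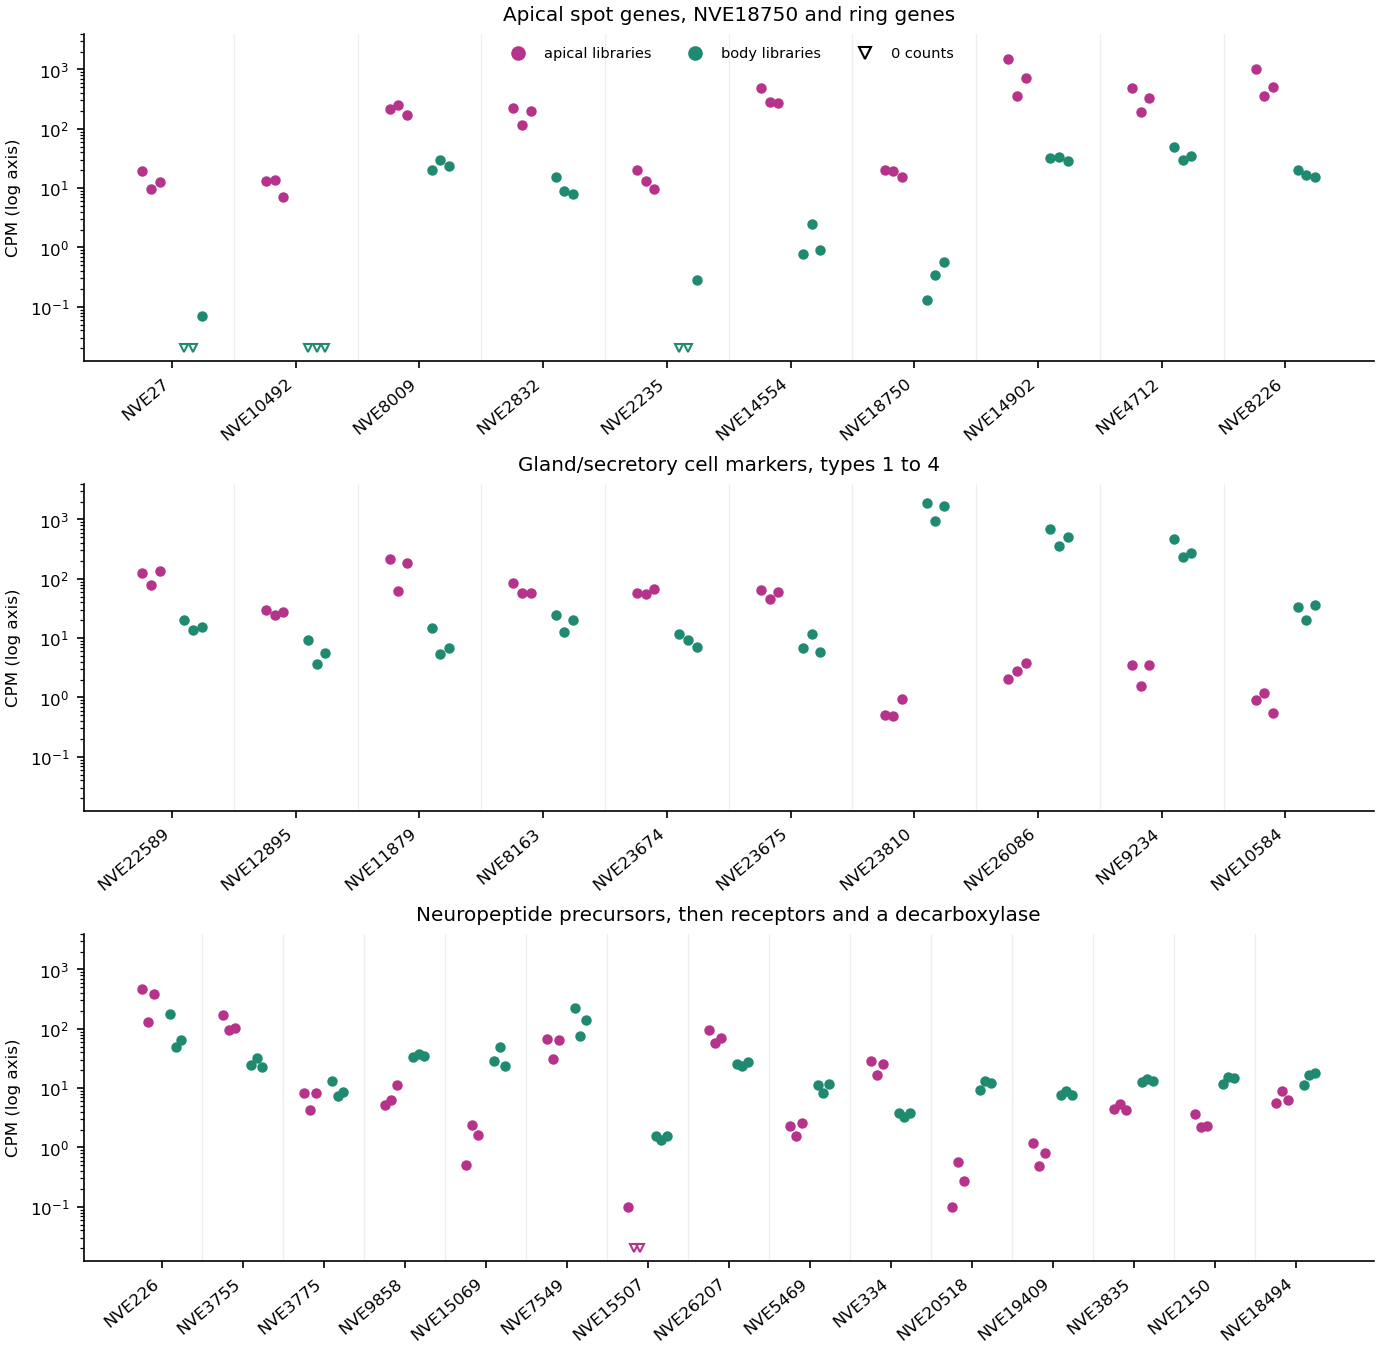
Level in CPM on a log axis in each of the 3 apical and 3 body late planula libraries, for the spot and ring models and NVE18750 (top), the markers of the 4 gland cell types (middle), and the neuropeptide precursors, receptors and decarboxylase (bottom), with 1 point per library and open triangles for libraries with 0 counts. Spot and ring models lie higher in apical than in body libraries, gland type 4 models lie at 0.486 to 3.88 CPM in apical against 19.97 to 1860 CPM in body libraries, and PRGamide (NVE226) overlaps between the tissues.

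Gland and secretory cells divided by type. The study took 4 larval gland cell types from single-cell data. It placed them by setting those data against these libraries and by in situ hybridisation of markers. Types 1 and 2 were placed near the apical end, type 3 throughout the larva and type 4 in the pharynx and mesenteries. In these libraries the marker models of types 1, 2 and 3 were higher in apical tissue, while those of type 4 were lower. The type 3 markers were thus not level between the tissues, although the study placed that type throughout the larva. Their apical level was 668% of the body level, beside 630% for type 1. All 6 markers of types 1 to 3 passed the edgeR test, and all 4 markers of type 4 passed in the opposite direction. The shares called over all tested models were 3.97% higher and 6.07% lower. The lists were drawn up with these libraries in view, so their directions are not independent evidence.

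The type 1 markers NVE22589 and NVE12895 summed to 157, 102 and 165 CPM in apical libraries, against 29.2, 17.3 and 20.8 CPM in body libraries (log2 fold changes 2.82 and 2.14, adjusted p = 0.000182 and 0.00287). The type 2 markers NVE11879 and NVE8163 summed to 301, 121 and 240 CPM in apical libraries, against 39.2, 18.0 and 27.0 CPM in body libraries (4.11 and 1.80, adjusted p = 0.000829 and 0.00381). The type 3 markers NVE23674 and NVE23675 summed to 124, 101 and 126 CPM in apical libraries, against 18.5, 21.0 and 12.9 CPM in body libraries (2.70 and 2.79, adjusted p = 0.000114 and 0.000345). None of these 6 models overlapped between the tissues, beside 12.6% of all tested models with all apical libraries above. All 6 remained well above the floor in the body.

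Gland type 4 markers were detected at low levels in apical tissue. NVE23810 had 0.505, 0.486 and 0.952 CPM in apical libraries, against 1860, 944 and 1716 CPM in body libraries (log2 fold change -11.22, SE 0.52, edgeR adjusted p = 1.41e-06). NVE26086 had 2.07, 2.75 and 3.88 CPM in apical libraries, against 704, 361 and 505 CPM in body libraries (-7.50, SE 0.42, adjusted p = 2.9e-06). The other 2 markers, NVE9234 (-6.83) and NVE10584 (-5.05), fell in the same way. Together the 4 models summed to 7.01, 5.95 and 8.91 CPM in apical libraries, against 3058, 1560 and 2533 CPM in body libraries. The apical level was thus 0.306% of that in the body.

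Further models lower in apical tissue reached similar extremes. NVE23587 was without counts in the 3 apical libraries and had 1390, 1587 and 2195 counts in body libraries (91.2, 68.6 and 77.2 CPM), at least 497-fold lower in apical tissue than in the body (adjusted p = 2.9e-06). NVE4604 had 2, 0 and 0 counts in apical libraries and 6506, 6423 and 13143 in body libraries, so that the body held 11555 times the apical level, with an exact 95% interval of 3199 to 95421 for counting error alone (adjusted p = 1.41e-06). These models had the most negative log2 fold changes under the naming rule, and the sources used here give neither a name. NVE9071, chosen after its values were seen, had the highest body level of any called model, with 2.83, 2.11 and 2.86 CPM in apical libraries against 5410, 4747 and 6036 CPM in body libraries (-11.02, SE 0.42, adjusted p = 6.83e-07). The called model with the highest apical level, NVE7655, also chosen after its values were seen, had 7899, 5333 and 7692 CPM in apical libraries against 4080, 2640 and 2277 CPM in body libraries (1.22, SE 0.33, adjusted p = 0.0467).

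Neuropeptide precursors, the proteins from which peptide transmitters are cut, did not move in 1 direction. Of 7 listed precursors, 1 was higher in apical tissue, 3 were lower and 3 did not pass the test, and the list's median log2 fold change was -1.43, beside 0.01 for all tested models. Calls over all tested models were 3.97% higher and 6.07% lower, and this list too was chosen with earlier results of these data known. The name RPamide III is attached to both NVE3755 and NVE3775 in the study's material. NVE3755 was higher, with 170, 96.1 and 102 CPM in apical libraries against 24.1, 32.0 and 23.0 CPM in body libraries (2.22, SE 0.29, edgeR adjusted p = 0.000836). NVE3775 had 8.17, 4.21 and 8.30 CPM in apical libraries against 13.3, 7.43 and 8.76 CPM in body libraries and overlapped between the tissues (-0.51, SE 0.36, adjusted p = 0.491). Which of the 2 identifiers carries the RPamide III peptides cannot be told from the sources used here.

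The precursors of LWamide, a peptide known in other cnidarians for inducing metamorphosis, and of HIRamide were lower in apical tissue. LWamide (NVE9858) had 5.25, 6.32 and 11.3 CPM in apical libraries, against 33.6, 38.1 and 34.2 CPM in body libraries (-2.22, SE 0.31, edgeR adjusted p = 0.00137). HIRamide (NVE15069) had 0.505, 2.43 and 1.63 CPM in apical libraries, against 28.9, 48.6 and 23.8 CPM in body libraries (-4.45, SE 0.52, adjusted p = 0.000406). A tachykinin-related precursor (NVE15507) was the third to fall, with 2, 0 and 0 counts in apical libraries and 24, 31 and 44 in body libraries. The body held 43.9 times its apical level (exact 95% interval 11.8 to 367 for counting error, adjusted p = 0.00762).

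The remaining precursors lay near the threshold. PRGamide (NVE226) had 460, 130 and 387 CPM in apical libraries against 175, 49.9 and 65.9 CPM in body libraries, where the lowest apical library lay below the highest body library. Within each replicate number, however, the apical library lay above the body library. Its log2 fold change of 1.75 (SE 0.55) did not pass at an edgeR adjusted p of 0.0765. Over 15 alternatives that p ranged between 0.000881 and 0.298. The smallest value came with the replicate number as a block, where PRGamide was called higher in apical tissue. Whether same-numbered libraries share larvae is not stated, so a regional difference in PRGamide is not excluded. Without body replicate 1 the log2 fold change was 2.49 (adjusted p = 0.0065). An Antho-RFamide precursor (NVE7549) had 66.1, 31.5 and 65.2 CPM in apical libraries against 223, 74.8 and 142 CPM in body libraries without overlap (-1.43, SE 0.41, adjusted p = 0.0566, range 0.00115 to 0.156). Here too the smallest value came with the block. In both, replicate 2 was the lowest library of each tissue.

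Transmitter receptors and a decarboxylase formed the last list, with names that the study took from sequence similarity. Of these 8 models, 2 were higher and 6 were lower in apical tissue, with a median log2 fold change of -1.90. Over all tested models 3.97% were called higher and 6.07% lower. The list was chosen with earlier results of these data known, so its counts say nothing particular about receptors. The higher ones were a cholinergic receptor (NVE26207) and a rhodopsin-family receptor (NVE334). NVE26207 had 96.4, 58.4 and 68.7 CPM in apical libraries against 25.6, 23.4 and 27.7 CPM in body libraries (1.54, SE 0.25, edgeR adjusted p = 0.00313). NVE334 had 28.3, 16.7 and 25.7 CPM in apical libraries against 3.81, 3.28 and 3.87 CPM in body libraries (2.69, SE 0.29, adjusted p = 0.000258).

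Among the lower models, a G protein-coupled receptor (NVE20518) had low levels in apical tissue, with 0.101, 0.567 and 0.272 CPM in apical libraries against 9.45, 13.4 and 12.03 CPM in body libraries (-5.13, SE 0.52, edgeR adjusted p = 0.000152). Its value was -6.00 without apical replicate 2, the highest apical library. A GABA receptor (NVE5469), whose ligand is the transmitter gamma-aminobutyric acid, had 2.32, 1.54 and 2.58 CPM in apical libraries against 11.4, 8.34 and 11.8 CPM in body libraries (-2.30, SE 0.34, adjusted p = 0.00183). A metabotropic glutamate receptor (NVE2150) had 3.63, 2.23 and 2.31 CPM in apical libraries against 11.9, 15.7 and 15.1 CPM in body libraries (-2.38, SE 0.32, adjusted p = 0.000948). None of these 3 overlapped between the tissues, beside 15.02% of all tested models with all apical libraries below. The dopamine receptors NVE19409 (-3.28, SE 0.41, adjusted p = 0.00066) and NVE3835 (-1.51, SE 0.27, adjusted p = 0.00523) were lower as well. The decarboxylase NVE18494 had 5.60, 8.87 and 6.39 CPM in apical libraries against 11.3, 16.6 and 18.2 CPM in body libraries (-1.14, SE 0.30, adjusted p = 0.0404). Its call was lost without apical replicate 1 (0.172) or 3 (0.126) and without body replicate 2 (0.110) or 3 (0.199), and in the fit of all 10 libraries (0.0937).

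Over the 35 listed gene models, 19 were higher in apical tissue, 13 were lower and 3 did not pass the test. Against the background of 3.97 and 6.07% called over all tested models, these counts reflect how the lists were drawn and say nothing particular about the listed models.

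The same contrast in mid-planulae showed which regional differences were already present earlier. In a separate fit of the 4 mid-planula libraries, 1100 of 20466 gene models were called (5.37%), 507 higher (2.48%) and 593 lower (2.90%) in apical tissue. Of the 793 models higher in late apical tissue, 787 were tested in mid-planulae, where 773 (98.2%) had the same sign and 350 were called in the same direction. Of the 1210 lower models, 1126 were tested, where 1082 (96.1%) had the same sign and 500 were called in the same direction. The 2 stages share no library. For the models tested at both stages, the median log2 fold change was 1.47 in late planulae and 1.15 in mid-planulae among the higher set, and -2.45 in late planulae and -1.75 in mid-planulae among the lower set. Because the models were chosen by their late values, smaller mid-planula values are a description, with no test. One model was called in opposite directions, NVE3048, with 14.3, 13.4 and 8.91 CPM in apical and 19.3, 28.7 and 29.8 CPM in body libraries of late planulae (log2 fold change -1.09, edgeR adjusted p = 0.0375) and a log2 fold change of 1.43 in mid-planulae (adjusted p = 0.048), while the difference between the stages did not pass its own test (interaction adjusted p = 0.138). The 84 lower models left untested in mid-planulae had a median late body level of 1.61 CPM.

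All 35 listed models had the same sign at both stages, and 27 of them were called in mid-planulae. The study called its regional genes with both stages pooled, and the lists were chosen with earlier results of these data known. The shared signs and the mid-planula calls of the listed models are therefore not independent evidence. ISX-like (NVE14554) had a log2 fold change of 7.94 in late planulae and 6.05 in mid-planulae. PRGamide (NVE226), not called in late planulae, had 2.06 in mid-planulae (edgeR adjusted p = 0.00237). The receptor NVE20518 had -5.13 in late planulae and -2.95 in mid-planulae, where it did not pass (adjusted p = 0.0913). Its level in the mid-planula apical libraries was 1.40 CPM in replicate 1 and 0 in replicate 2, so the mid-planula value rests on 1 library. The gland type 4 marker NVE23810 likewise had 10.4 and 0.156 CPM in these libraries. The difference between stages was tested as the stage by tissue interaction with all 10 libraries, which called none of the 35, with the smallest adjusted p at 0.188 (NVE10492), while 5 of the 35 had an unadjusted p under 0.05 (NVE10492, NVE14554, NVE18750, NVE23810 and NVE9234). Over all 21683 models in that fit, 5 were called (0.0231%) and 875 (4.04%) had an unadjusted p under 0.05. Without the filter on low counts, 10 were called.

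**Figure D4:**
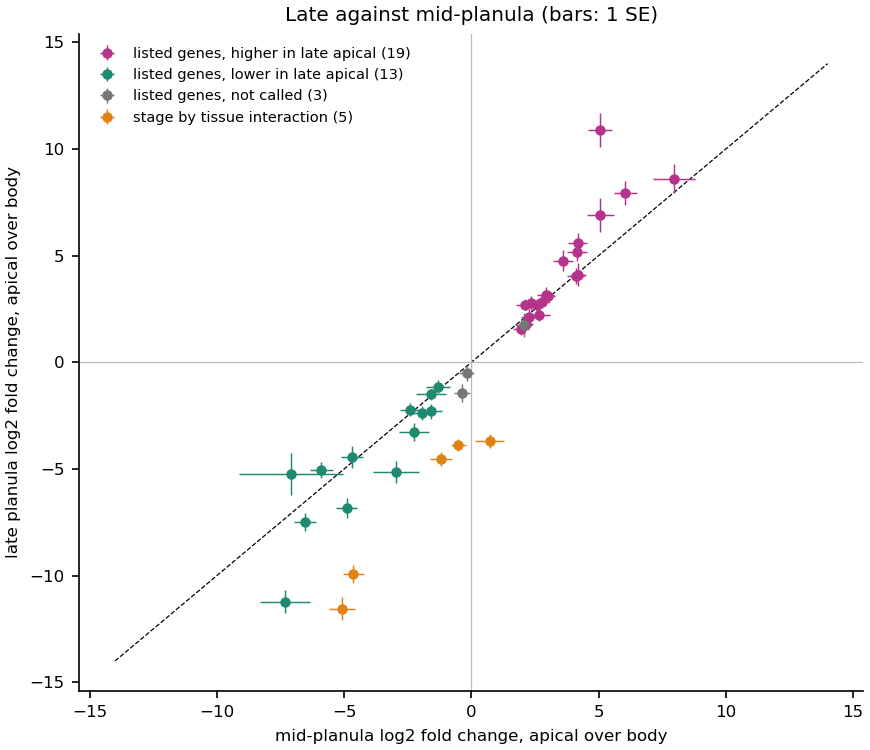
Log2 fold change of apical over body tissue in late planulae (vertical axis) against that in mid-planulae (horizontal axis) for the 35 listed gene models, coloured by their late planula call, and the 5 models called for a difference between stages (orange). Bars are 1 SE and the dashed line marks equal values. The 35 listed models, chosen with earlier results of these data known, have the same sign at both stages, and the 5 orange models lie below the line.

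The 5 models that differed between the stages were chosen after their values were seen, and all 5 had a more negative apical over body difference in late planulae. On a scale common to all 10 libraries, NVE253 had 8.37, 4.29 and 6.10 CPM in apical and 96.1, 90.1 and 92.7 CPM in body libraries of late planulae, against 15.02 and 19.3 CPM in apical and 21.2 and 28.6 CPM in body libraries of mid-planulae. The tissues were thus clearly separate at the late stage (log2 fold change -3.88) and close at the earlier one (-0.51), with a difference of -3.35 (edgeR interaction adjusted p = 0.0144). NVE6370 had a log2 fold change of -3.69 in late planulae and 0.72 in mid-planulae, where its level was 3.02 and 3.003 CPM in apical and 2.10 and 1.61 CPM in body libraries (difference -4.40, adjusted p = 0.0144). NVE3642 had -4.54 in late planulae and -1.21 in mid-planulae (difference -3.32, adjusted p = 0.0232). NVE17896 and NVE21815 were already called lower in mid-planula apical tissue (-4.64 and -5.09). Their late values were -9.93 and -11.54, and the levels moved in both tissues. The body libraries held 87.7 to 138 CPM and 131 to 233 CPM in late planulae, against 33.3 to 40.3 CPM and 23.1 to 44.5 CPM in mid-planulae. With 3 counts in all over the late apical libraries, NVE21815 had 3278 times that level in the late body, with an exact 95% interval of 1121 to 15899 for counting error alone. The apical libraries of both models held at most 0.165 CPM in late planulae, against 0.392 to 1.98 CPM in mid-planulae (interaction adjusted p = 0.0144 for NVE17896 and 0.0445 for NVE21815). The late apical counts were 3, 2 and 1 for NVE17896 and 2, 0 and 1 for NVE21815, at or under the floor of 3. The sizes of both late values are therefore uncertain.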

How the data were processed

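Polyadenylated RNA was sequenced from both ends in 10 libraries, of which the 6 late planula libraries were compared here. The authors trimmed reads with Trimmomatic 0.36, mapped them with STAR and counted them on gene models with HTSeq 0.6, and deposited raw counts per gene model, without normalisation, for each library. The submitters' notes also name Bowtie2, limma and DESeq2. The genome build, HTSeq's overlap mode and its strand setting are not given in the sources used here, so counts of overlapping, antisense and near-identical gene models are uncertain. Even numbers made up 70.3 to 83.9% of the counts of 1 to 20 in a library. Counting errors are wider than given if the mates of a pair were counted separately. The files do not pair identifiers with names, and 0 NVE identifiers matched the RefSeq gene table, so gene names are the study's, and no sequences or positions are given.

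The deposited counts were tested with edgeR 4.0.16 (limma 3.58.1, R 4.3.3), using the quasi-likelihood test, TMM normalisation, filterByExpr (minimum count 10, minimum total 15) over the 2 tissues and Benjamini-Hochberg adjustment, with models called at an adjusted p-value under 0.05. The 4 mid-planula libraries were fitted separately, and the stage by tissue interaction used all 10. Groups came from the labels. No library appeared to be a copy of another, as replicates differed by more than counting noise (chi-square of 38.2 to 107 per degree of freedom), which does not show that the pools were independent. Members and gene lists were chosen with earlier results of these data known. Models named are those of the lists and, among called models whose average log2 CPM reached 1 and which had no overlap between tissues, the 2 largest and 2 smallest log2 fold changes. Others were named after their values were seen, and each count of 5 or fewer is listed by name.

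The alternatives were DESeq2's size factors (RLE), upper-quartile scaling, the DESeq2 1.42.0 Wald test, limma-voom, no filter, at least 10 counts in every library, a fit of all 10 libraries, the replicate number as a block, halved counts, a log2 fold change of 1 or more in either direction, and leaving out each library. In simulated counts for the 6 libraries (19950 models, 200 changed), edgeR called 0% of models changed 2-fold and 63% of those changed 4-fold, and DESeq2 8% and 71.5%. Of the calls at 4-fold, 5.26% with edgeR and 22.7% with DESeq2 were unchanged models. These shares hold for that setting only, with 200 models changed and the spread of each model estimated from the same libraries. In the data 2003 models were called, among them 81 higher and 48 lower ones with an absolute log2 fold change under 1. The shares are therefore not the power or error rate of the comparison itself.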

Additional observations from a re-analysis of the deposited data

Results flagged for a closer look

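The apical over body difference itself differed between late and mid-planulae in 5 of the 21683 gene models tested for it with all 10 libraries (edgeR quasi-likelihood interaction, adjusted p under 0.05), and 875 had an unadjusted p under 0.05. Late minus mid, the log2 difference was -4.40 for NVE6370, -5.28 for NVE17896, -3.35 for NVE253, -3.32 for NVE3642 and -6.46 for NVE21815. In each, the level in the 3 late body libraries lay above that in the 2 mid body libraries, and the level in the 3 late apical libraries lay below that in the 2 mid apical libraries.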

How the results depend on the processing

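The main result was 2003 called gene models, 793 higher and 1210 lower in apical tissue. The count of higher models was 1194 with the DESeq2 test, and the count of lower models was 726 when at least 10 counts were required in every library, a filter that leaves out models near 0 in one tissue. When each library was left out once, the fits gave 958 to 2070 calls, 252 to 884 higher and 706 to 1188 lower. Without body replicate 1 there were 2070 calls and without apical replicate 2 there were 2051, both above the main count, while the other fits gave fewer. The effect of having fewer libraries was not tested apart from which library was left out. With the replicate number as a block, 3037 models were called, 1399 of them higher, and the interaction count was 45. Same-numbered apical and body libraries had deviations that correlated at 0.261, 0.552 and -0.119, and apical replicate 3 correlated best with body replicate 1 (0.417). Deviations from a mean of 3 libraries are tied to one another, so these correlations cannot decide whether the numbers pair the libraries. No source states a pairing, so the main fit left the numbers out and the block is given as an alternative. Without a filter, 10 models were called for the interaction. The other settings gave 1975 to 2343 calls, or 1874 with a log2 fold change of at least 1. For 37 named models, 215 of 222 values with a library left out and 313 of 324 under other settings kept their direction and side of the threshold, 5 lost and 13 gained a call, and 0 were reversed. The losses were all for the decarboxylase NVE18494, and the gains for PRGamide (NVE226) and the Antho-RFamide precursor (NVE7549). At these depths a level under 3 counts in a library could not be told from 0.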

Other observations

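The gene models with the largest counts, chosen after their values were seen, did not pass the test between the tissues. NVE14201 had 47179, 28582 and 76180 CPM in apical libraries against 47350, 19594 and 27691 CPM in body libraries (log2 fold change 0.68, edgeR adjusted p = 0.479). NVE8266 had 45693, 23898 and 53943 CPM in apical libraries against 26580, 9983 and 15357 CPM in body libraries (1.25, adjusted p = 0.136). In both models replicate 2 held the lowest level of each tissue, as it did for PRGamide (NVE226) and the Antho-RFamide precursor (NVE7549). The next models by mean level, NVE1939, NVE12051 and NVE12094, did not pass either, with log2 fold changes of -0.74, -0.23 and -0.13. Replicate 2 was also lowest in each tissue for NVE12051 and NVE12094. For NVE1939 the lowest apical library was replicate 1. The sources used here give no names for these models.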
